A study of Mus musculus with 20 samples.

Results

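The 10 genes of early B-lymphoid development followed here across the 4 genotypes and both cell types of the study were Dntt, Il7r, Rag1, Rag2, Ebf1, Pax5, Cd79a, Cd79b, Vpreb1 and Igll1. They were chosen by name, and all 10 of them were found among the 24315 genes of each of the LSK and MEP tables. RNA had been extracted from LSK cells (Lin-Sca1+Kit+, the bone marrow gate that holds stem cells and multipotent progenitors) and MEP cells (megakaryocyte-erythroid progenitors, Lin-Sca1-Kit+ with absent CD34 and low or absent Fc gamma receptor II/III) sorted from C57BL/6 mice, and polyA RNA was sequenced. Each cell type has 10 libraries, of which 3 are WT, 3 Dnmt3a-/-, 2 Bcor-/- and 2 Bcor-/-Dnmt3a-/-, called double knockout below. Deletion was driven by Mx1-Cre, an interferon-inducible Cre that is switched on by pIpC, and it removes exons of Bcor, which codes for a corepressor of BCL6, and inactivates Dnmt3a, a DNA methyltransferase. WT controls are mice with untargeted genes. The study counts blood cells of WT controls before and after pIpC. The column labels of the WT libraries carry WT in the place where those of all knockout libraries carry Cre. The labels of WT and Dnmt3a-/- share the part 3A_XY, which those of Bcor-/- and double knockout lack. No source used here explains these parts or states whether the sequenced WT mice carried the Cre. Whether they received pIpC is not given either, nor is the age of the sequenced mice. Recombination of Dnmt3a is described as partial in Dnmt3a-/- mice, the study's text calls the double knockout mice of its RNA-seq comparison leukemic, and no label gives a stage of disease, so that genotype and leukemia cannot be told apart in that group. Each mouse or pool gave an LSK and a MEP library, and the label of Bcor-/- replicate 1 names 2 mice, so that the tests below rest on the spread between mice.

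Lymphoid development starts in multipotent progenitors that transcribe a few lymphoid genes before they commit to a lineage, a state called lymphoid priming. Dntt (terminal deoxynucleotidyl transferase, which adds bases at the junctions of rearranged antigen receptor genes), Il7r (the alpha chain of the interleukin-7 receptor) and Rag1 (the catalytic partner of the RAG recombinase) are the early priming genes, and Rag2 codes for the other RAG subunit. Ebf1 and Pax5 code for the transcription factors that specify and then commit the B lineage, Cd79a and Cd79b code for the signalling chains of the B cell receptor, and Vpreb1 and Igll1 code for the surrogate light chain, which pairs with the heavy chain in the pre-B cell receptor and is switched off as cells leave the pre-B stage.

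All values below are FPKM (fragments scaled to transcript length and to the mapped fragments of a library) as deposited, and differences are log2 fold changes on the log2(FPKM + 1) scale, which understates the change of low genes. A gene was called at a Benjamini-Hochberg adjusted p under 0.05 in limma and a fold change above 1.5, over the genes that averaged 1 FPKM or more, 11952 in LSK and 10933 in MEP. Every member passed that filter in both tables, but Ebf1 and Pax5 in LSK and Rag2 in MEP passed through the double knockout libraries alone, so their presence among the tested genes is no result. An exact permutation test on 1 gene cannot give a p below 0.1 with 2 libraries against 3 or with 3 against 3. LSK and MEP values come in separate tables, and how libraries were scaled to each other, within or between the tables, is not given in the sources used here, so that levels of LSK and MEP are set side by side and no test was run between them.

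The double knockout libraries did not resemble each other as the libraries of the other groups did. Over the tested genes, double knockout replicates 1 and 2 correlated at r = 0.849 in LSK and 0.815 in MEP, whereas no pair of libraries of another group fell below 0.973 in LSK or 0.971 in MEP. The RNA of the targeted genes was not lost: in LSK, Bcor had 22.4 and 23.2 FPKM in Bcor-/- and 24.0 and 37.4 in double knockout, against 29.5 to 32.4 in WT. Dnmt3a in LSK had 11.3 to 16.9 FPKM in Dnmt3a-/- and 10.4 and 10.9 in double knockout, against 16.1 to 19.8 in WT, and the double knockout decrease was called (log2 fold change -0.68, SE 0.16, adjusted p = 0.0141 in limma). In MEP, Dnmt3a had 6.85 and 3.44 FPKM in double knockout against 5.49 to 6.64 in WT. It was not called there (log2 fold change -0.26, SE 0.30, adjusted p = 0.528 in limma), and nor was Bcor (-0.03, SE 0.16, adjusted p = 0.888). Since a transcript that lacks some exons still gives FPKM, these levels do not check the deletions. They do differ from the study's own assays. The study detected no Bcor mRNA by PCR in Bcor-/- LSK and reports loss of Bcor protein in lineage-negative marrow. It describes the loss of Dnmt3a as complete in leukemic double knockout mice. Here Bcor in LSK replicate 2 and Dnmt3a in MEP replicate 1 of double knockout lay above every WT library. The reason for the difference was not tested. LSK markers also differed: the summed FPKM of 8 stem and progenitor genes (Kit, Ly6a, Cd34 and Flt3 among them) was 178 and 374 in double knockout against 1142 to 1340 in WT, and 7 of the 8 were called lower (11.4% of all tested genes were). The exception was Ly6a, which codes for the gate marker Sca-1 and had 63.5 and 220.2 FPKM in double knockout against 59.8 to 70.7 in WT. Cd34 in particular had 5.87 and 37.3 FPKM in double knockout LSK against 548 to 650 in WT, so these libraries differ from WT in genes that mark the labelled cells. Because of this split, the levels of the members are given for each double knockout library, and some fits against WT also with either library alone.

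Of the 10 members, Dntt was the one lower in both double knockout libraries of both cell types. The WT LSK libraries held Dntt at 309, 333 and 220 FPKM and the Dnmt3a-/- libraries at 273, 305 and 266, against 128 and 65.2 for Bcor-/- and 2.58 and 75.5 for double knockout. WT and Dnmt3a-/- libraries overlapped, both Bcor-/- libraries lay below all 6 of them, and the lowest Bcor-/- library lay below double knockout replicate 2. Dntt fell in double knockout LSK by 4.10 on the log2 scale (SE 0.98, adjusted p = 0.0134 in limma). Against the WT mean of 287 FPKM the decrease was 111-fold in replicate 1 and 3.81-fold in replicate 2, so its size rests largely on replicate 1. With replicate 2 as the sole double knockout library it was still called (log2 fold change -1.89, SE 0.33, adjusted p = 0.00125), and with replicate 1 as the sole library the value was -6.31. The call was lost when the fit held only double knockout and WT (adjusted p = 0.0904 in limma, with 0.00978 to 0.0904 over all alternatives that kept every library). Bcor-/- LSK had a mean of 96.5 ± 44.2 FPKM (SD, n = 2) against 287 ± 59.7 (SD, n = 3) in WT, and its log2 fold change of -1.62 did not pass (SE 0.98, adjusted p = 0.351 in limma). The spread in that fit comes in part from the double knockout libraries: Dntt was the 1 member called in Bcor-/- LSK with 1 variance per genotype and when the fit held only Bcor-/- and WT. The variance per genotype is a weight for each genotype estimated over all genes, here and below, and is not the spread of Dntt itself. Double knockout LSK and Bcor-/- LSK were not told apart for Dntt (log2 fold change -2.48, SE 1.08, adjusted p = 0.113).

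The WT MEP libraries held Dntt at 50.3, 74.4 and 73.8 FPKM and the Dnmt3a-/- libraries at 74.6, 36.6 and 36.4, against 61.9 and 23.6 for Bcor-/- and 3.15 and 9.09 for double knockout. The 3 groups without the double knockout overlapped, and both double knockout libraries lay below all 8 of the others. Dntt fell in double knockout MEP by 3.35 against WT (SE 0.51, adjusted p = 0.00225 in limma), by 2.60 against Bcor-/- (SE 0.56, adjusted p = 0.0127) and by 2.87 against Dnmt3a-/- (SE 0.51, adjusted p = 0.00339). None of the 3 was called with 1 variance per genotype, nor the one against Bcor-/- when only those genotypes were fitted. The 3 comparisons share the double knockout libraries. In bulk RNA, fewer cells that carry a transcript and less of it per cell cannot be told apart, here and in every result below. Dntt was higher in LSK than in MEP in 9 of 10 mice or pools, the exception being double knockout replicate 1.

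The promoter of Dntt is shown because it is the member that lay below WT in all 4 double knockout libraries, and the promoter of Cd79a because its log2(FPKM + 1) difference in double knockout LSK was the largest of the members. As a ratio of mean FPKM, Pax5 (123-fold) and Ebf1 (81.0-fold) exceeded Cd79a (72.5-fold). Of the members, 9 of 10 were found by symbol in a RefSeq table of promoters on GRCm38.p6, a later build than the mm9 named in the submitters' processing notes, and the 250 bases upstream of the start are printed 5′ to 3′ on the strand of the gene. Capitals mark matches to CANNTG, the E-box bound by E proteins such as the product of Tcf3, or to CCCNNGGG, the core bound by EBF1. Both motifs read the same on either strand, and no match of one overlapped the other here. The Dntt window is chr19:41029025-41029274, plus strand, with 3 E-boxes. The Cd79a window is chr7:24897247-24897496, plus strand, with 2 E-boxes.
Dntt: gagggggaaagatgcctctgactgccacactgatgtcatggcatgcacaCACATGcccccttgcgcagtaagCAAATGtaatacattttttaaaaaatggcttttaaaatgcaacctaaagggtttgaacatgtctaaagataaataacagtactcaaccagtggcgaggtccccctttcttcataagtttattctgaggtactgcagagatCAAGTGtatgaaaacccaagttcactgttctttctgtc
Cd79a: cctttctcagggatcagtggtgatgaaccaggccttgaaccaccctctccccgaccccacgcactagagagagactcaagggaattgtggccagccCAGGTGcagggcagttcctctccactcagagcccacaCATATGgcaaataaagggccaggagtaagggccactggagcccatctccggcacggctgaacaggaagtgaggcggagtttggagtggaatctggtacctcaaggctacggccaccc
CANNTG occurs in 66.2% of the 32841 RefSeq windows of this length and CCCNNGGG in 11.8%, so a match describes the window and no more. Among the 10 windows of the 9 matched members (Ebf1 has 2), 9 held CANNTG and 1 held CCCNNGGG.

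**Figure D1:**
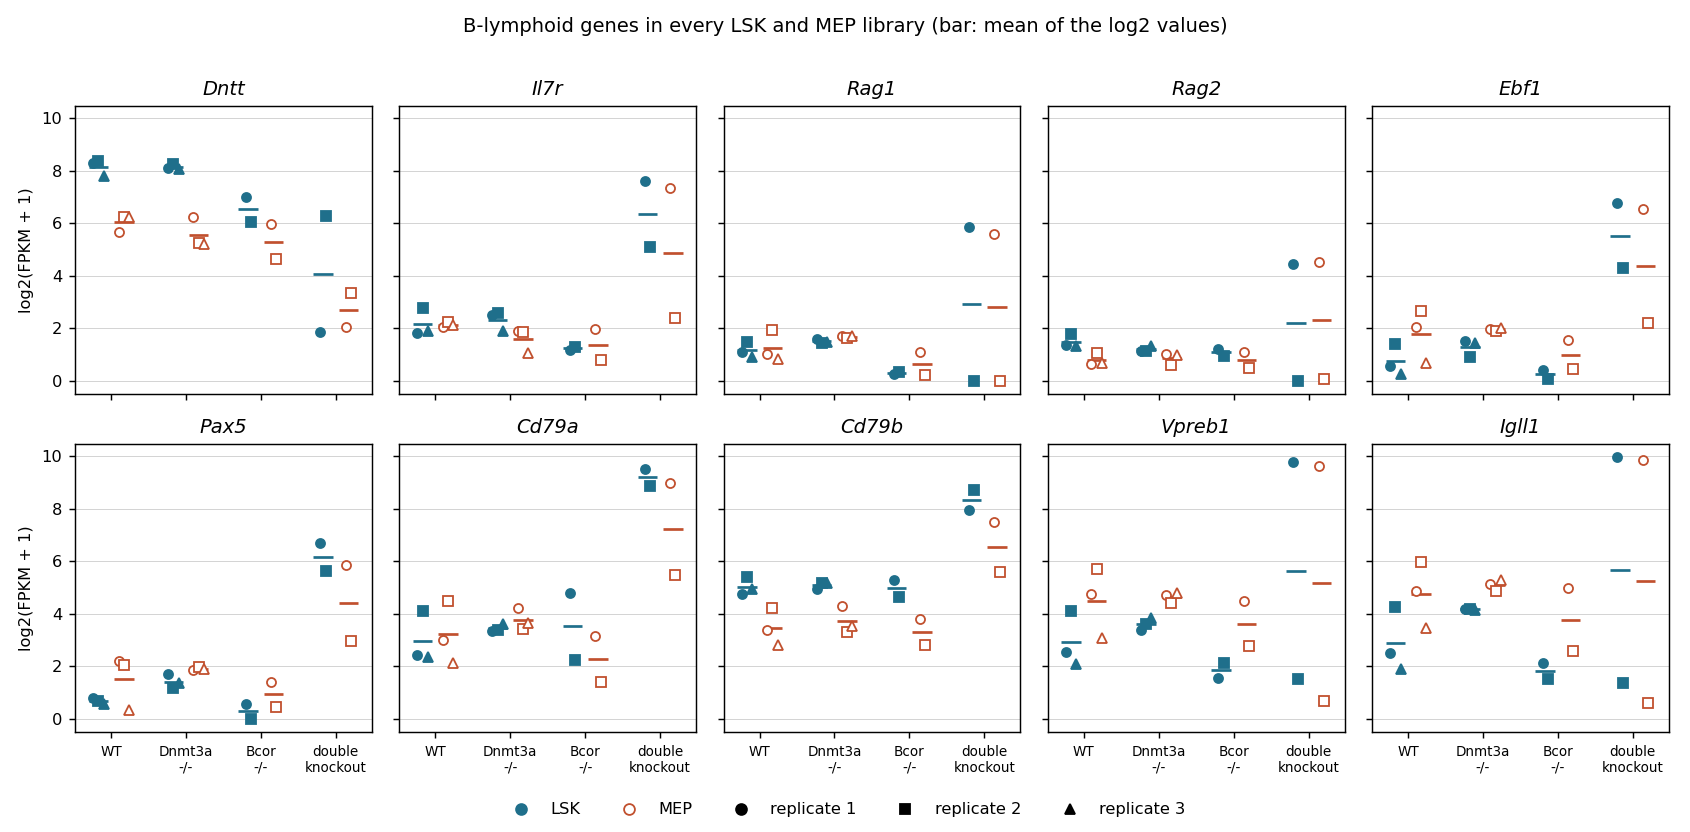
Level of each member as log2(FPKM + 1) in every library, by genotype, with filled symbols for LSK, open symbols for MEP, symbol shapes for the replicate number and a bar at the mean of the log2 values. Dntt is the member whose double knockout libraries all lie under the WT libraries, while double knockout replicates 1 and 2 lie far apart for Rag1, Rag2, Vpreb1 and Igll1.

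The other early priming genes rose in double knockout replicate 1 and differed in replicate 2. Il7r in LSK was at 2.58, 5.83 and 2.71 FPKM for WT, 4.62, 5.05 and 2.74 for Dnmt3a-/-, 1.28 and 1.43 for Bcor-/- and 194 and 32.7 for double knockout. Both double knockout libraries lay above all others, and both Bcor-/- libraries lay below all WT libraries. Il7r rose in double knockout LSK by a log2 fold change of 4.18 (SE 0.62, adjusted p = 0.00127 in limma) and was called with either library alone (2.91 and 5.44). Il7r in MEP was at 3.12, 3.77 and 3.32 FPKM for WT and at 163 and 4.31 for double knockout. Replicate 2 was thus barely above the WT range, and the log2 fold change of 2.75 missed the threshold (SE 1.15, adjusted p = 0.0982).

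Rag1 in LSK was at 1.12, 1.79 and 0.893 FPKM for WT, 2.05, 1.71 and 1.77 for Dnmt3a-/-, 0.182 and 0.246 for Bcor-/- and 57.4 for double knockout replicate 1, with replicate 2 listed at 0. Rag1 in MEP was at 1.01, 2.82 and 0.788 FPKM for WT, 2.27, 2.11 and 2.24 for Dnmt3a-/-, 1.15 and 0.157 for Bcor-/- and 47.1 for double knockout replicate 1, with replicate 2 again listed at 0. The 2 mice of the double knockout group thus lay on opposite sides of WT in both cell types. With both libraries the log2 fold change against WT was 1.77 in LSK (SE 1.28, adjusted p = 0.33) and 1.53 in MEP (SE 1.29, adjusted p = 0.383), and neither was called. A value listed at 0 can be a failed estimate in these tables, as for Hbb-b1, at 0 in the MEP library of double knockout replicate 2, where Hba-a1 has 55204 FPKM.

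Rag2 in LSK was at 1.54, 2.44 and 1.502 FPKM for WT, 1.31 and 0.946 for Bcor-/- and 20.7 for double knockout replicate 1, with replicate 2 listed at 0 as well. In MEP the double knockout libraries had 22.02 and 0.0580 FPKM, against 0.576, 1.11 and 0.591 in WT. Rag1 and Rag2 are neighbouring genes of 1 locus, and they took the same side of WT in each of the 4 double knockout libraries. A gene listed by GENCODE for GRCm38, B230118H07Rik, shares exon bases with both, on the strand of Rag1 and opposite Rag2, and the strandedness of the libraries is not given in the sources used here, so reads of the 3 genes may not be fully separated.

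Among the committed B genes, the transcription factors were higher in both double knockout LSK libraries than in WT. Ebf1 in LSK was at 0.493, 1.65 and 0.200 FPKM for WT and at 108 and 18.4 for double knockout, and in the 5 single knockout libraries it ranged from 0.0576 to 1.86 FPKM. The log2 fold change was 4.78 (SE 0.64, adjusted p = 0.000723 in limma). Ebf1 and Pax5 passed the LSK filter through the double knockout libraries alone, so their calls after it are no support by themselves. With no filter on low values the adjusted p was 0.0022 for Ebf1 and 0.000112 for Pax5. Pax5 in LSK was at 0.737, 0.630 and 0.468 FPKM for WT, 2.31, 1.25 and 1.60 for Dnmt3a-/-, 0.490 for Bcor-/- replicate 1, with replicate 2 listed at 0, and 102 and 48.4 for double knockout. The log2 fold change of Pax5 was 5.47 (SE 0.33, adjusted p = 3.52e-05), with 167-fold and 79.1-fold the WT mean in replicates 1 and 2.

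In MEP the same factors were high in replicate 1 and much lower in replicate 2. Ebf1 in MEP was at 3.10, 5.23 and 0.611 FPKM for WT and at 91.6 and 3.56 for double knockout, of which replicate 2 lay within the WT range. Its log2 fold change of 2.57 was not called (SE 1.09, adjusted p = 0.102). Pax5 in MEP was at 3.58, 3.18 and 0.284 FPKM for WT and at 56.6 and 6.86 for double knockout, both above WT, and was called at 2.87 (SE 0.82, adjusted p = 0.0286). Without replicate 1 the Pax5 value was 1.43 and was no longer called (adjusted p = 0.098). Pax5 shares exon bases with a pair of GENCODE genes on the opposite strand, 5730488B01Rik and Gm12462, so its reads may also not be fully separated.

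The signalling chains of the B cell receptor were the members that lay more than 4-fold above the WT mean in each of the 4 double knockout libraries. Cd79a in LSK was at 4.46, 16.2 and 4.196 FPKM for WT, 9.26, 9.44 and 11.4 for Dnmt3a-/-, 26.8 and 3.77 for Bcor-/- and 736 and 466 for double knockout. The other groups overlapped, and double knockout lay far above them, with a log2 fold change against WT of 6.22 (SE 0.71, adjusted p = 0.00033 in limma). Cd79a in MEP was at 7.14, 21.3 and 3.43 FPKM for WT and at 500.4 and 43.7 for double knockout, and was called at 4.01 (SE 1.03, adjusted p = 0.0188). With replicate 2 as the sole double knockout library, the MEP value was 2.26 and missed the threshold (adjusted p = 0.0535).

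Cd79b was the committed gene with the highest level in LSK of the other genotypes, at 25.9, 41.4 and 30.0 FPKM in WT, 30.0, 35.1 and 35.3 in Dnmt3a-/- and 38.2 and 24.3 in Bcor-/-. In double knockout LSK it had 246 and 424 FPKM, and here replicate 2 was the higher library (log2 fold change 3.30, SE 0.28, adjusted p = 8.13e-05). Cd79b in MEP was at 9.45, 17.9 and 6.02 FPKM for WT and at 179 and 47.9 for double knockout (log2 fold change 3.07, SE 0.62, adjusted p = 0.00699). Cd79b was called against WT with either double knockout library alone in both cell types, as was Dntt. In MEP the call of Cd79b was lost when only double knockout and WT were fitted (adjusted p = 0.0521) and with 1 variance per genotype (adjusted p = 0.231). In all 10 mice or pools Cd79b was higher in LSK than in MEP. The ratio of Cd79a to Cd79b was 0.140 to 0.701 in the 8 LSK libraries of the other genotypes, and 2.99 and 1.10 in the double knockout ones. In MEP it was 0.278 to 1.19, against 2.79 and 0.912 in double knockout, where replicate 2 fell within the range of the others.

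On the log2(FPKM + 1) scale, the surrogate light chain genes split the double knockout libraries most widely among the members. Vpreb1 in LSK was at 4.803, 16.4 and 3.26 FPKM for WT, 9.57, 11.2 and 13.4 for Dnmt3a-/-, 1.98 and 3.41 for Bcor-/- and 878 and 1.88 for double knockout. Igll1 in LSK was at 4.65, 18.3 and 2.78 FPKM for WT, 17.4, 17.5 and 16.9 for Dnmt3a-/-, 3.39 and 1.87 for Bcor-/- and 996 and 1.60 for double knockout. For both genes replicate 1 was the highest and replicate 2 the lowest of the 5 WT and double knockout libraries. Vpreb1 in MEP was at 26.01, 50.9 and 7.43 FPKM for WT and at 793 and 0.627 for double knockout, and Igll1 at 28.1, 62.8 and 9.92 for WT and at 928 and 0.536 for double knockout. With both libraries neither gene was called against WT: the log2 fold changes were 2.74 and 2.77 in LSK (SE 1.84 and 1.92, adjusted p = 0.296 and 0.311) and 0.66 and 0.47 in MEP (SE 2.10 and 2.19, adjusted p = 0.829 and 0.887). With replicate 1 alone Vpreb1 was at 6.87 in LSK and 5.12 in MEP, and with replicate 2 alone at -1.39 and -3.81. Those single-library values were called but for replicate 2 in LSK (adjusted p = 0.0926 for Vpreb1 and 0.0995 for Igll1), and the lone library is assumed to vary like the other groups.

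Vpreb1 and Igll1 are adjacent coding genes on chromosome 16, in the same orientation, and their levels stayed close to each other while both moved over so wide a range. The ratio of Igll1 to Vpreb1 was 0.549 to 1.82 over the 10 LSK libraries and 0.854 to 1.41 over the 10 MEP libraries, and 1.13 and 0.854 in the double knockout LSK libraries. Their promoters are printed because the pair moved together. The Vpreb1 window is chr16:16869256-16869505, minus strand, with 1 E-box, and the Igll1 window is chr16:16863986-16864235, minus strand, with 3 E-boxes and the 1 CCCNNGGG match among the members (CCCAGGGG).
Vpreb1: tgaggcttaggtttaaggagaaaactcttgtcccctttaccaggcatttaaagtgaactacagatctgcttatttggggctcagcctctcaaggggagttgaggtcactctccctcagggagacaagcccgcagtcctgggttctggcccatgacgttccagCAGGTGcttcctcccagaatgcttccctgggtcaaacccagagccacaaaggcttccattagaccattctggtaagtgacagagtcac
Igll1: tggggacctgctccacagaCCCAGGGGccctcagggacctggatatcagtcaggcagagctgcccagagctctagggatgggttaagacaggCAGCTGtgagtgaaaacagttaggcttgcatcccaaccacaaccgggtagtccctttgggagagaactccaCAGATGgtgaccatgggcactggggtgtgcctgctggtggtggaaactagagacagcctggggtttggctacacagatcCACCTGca
An exon of Top3b on the opposite strand overlaps Vpreb1 in GENCODE, and Igll1 has no such overlap. Of their paralogs, Vpreb2 had 121 and 122 FPKM in double knockout LSK and MEP replicate 1 and is listed at 0 in both replicate 2 libraries, against at most 2.22 FPKM in WT LSK and 4.46 in WT MEP. Vpreb3 had 523 and 19.3 FPKM in double knockout LSK, both above the 3.96 to 15.6 of WT, and 418 and 1.30 in MEP, on either side of the 4.82 to 38.6 of WT. Near-identical copies can share reads, so values of Vpreb1 and Vpreb2 are less certain one by one.

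**Figure D2:**
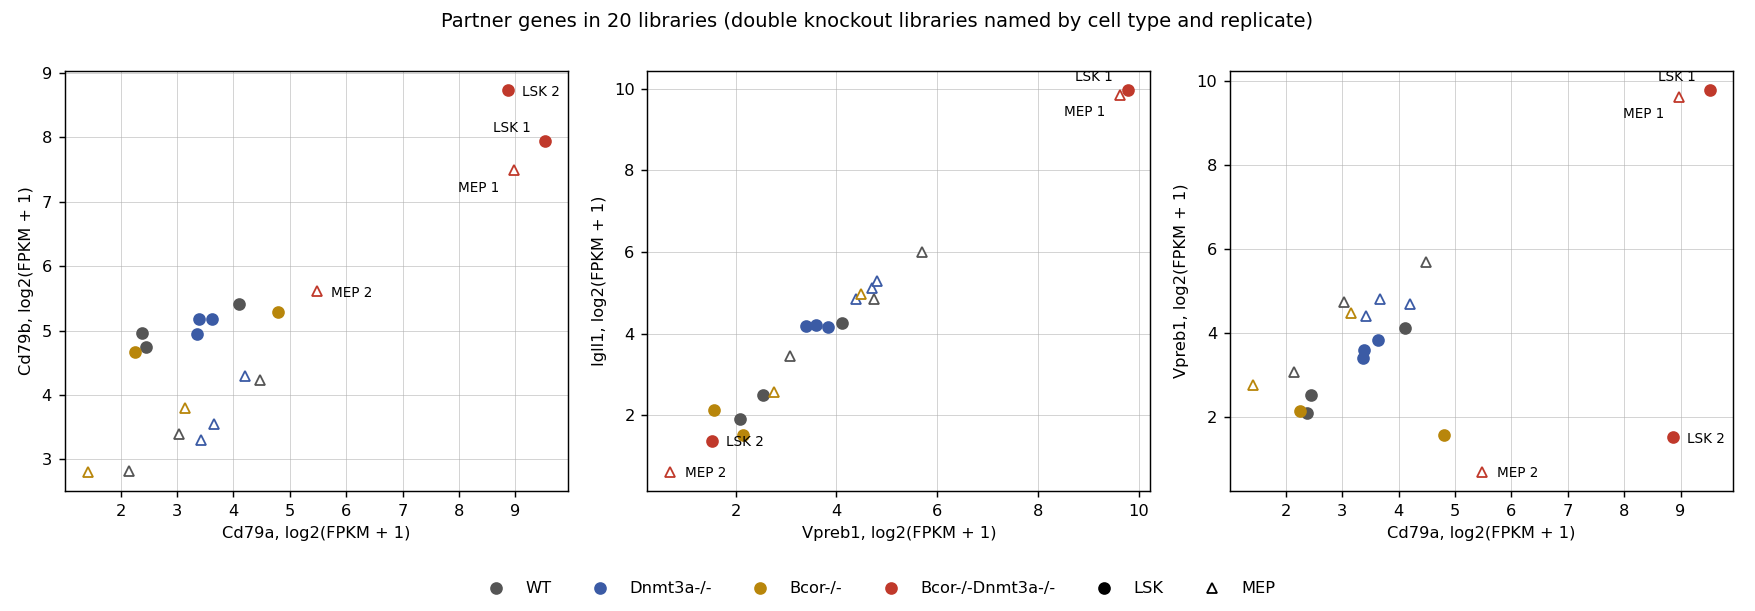
Levels as log2(FPKM + 1) of Cd79b against Cd79a, Igll1 against Vpreb1 and Vpreb1 against Cd79a, 1 point per library, filled circles for LSK, open triangles for MEP and colour for genotype. Igll1 follows Vpreb1 in all 20 libraries, whereas double knockout LSK replicate 2 has Cd79a at 466 FPKM beside Vpreb1 at 1.88 FPKM.

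Counted over the members, 6 of 10 were called in double knockout LSK against WT, with Il7r, Ebf1, Pax5, Cd79a and Cd79b higher and Dntt lower. Of all 11952 tested genes 23.7% were called in that comparison, 12.3% higher and 11.4% lower. Since Ebf1 and Pax5 entered the LSK test through the double knockout libraries alone, the count over the members that pass the filter without those libraries is 4 of 8, against 22.7% of the 11571 such genes. In MEP 4 of 10 were called, Pax5, Cd79a and Cd79b higher and Dntt lower, against 25.2% of the 10933 tested genes (14.1% higher and 11.0% lower), or 4 of 9 against 23.6% of 10428 without Rag2 and other such genes. The double knockout and WT libraries did not overlap for 6 members in LSK (49.6% of all genes) and 5 in MEP (50.5%), where Il7r was the addition to the called ones. Without WT replicate 3 the MEP count of calls was 2, Dntt and Cd79b, while Cd79a missed the threshold without WT replicate 1 (adjusted p = 0.0542 in limma) and Pax5 without WT replicate 2 (adjusted p = 0.0522). All 4 MEP calls were lost with 1 variance per genotype (adjusted p from 0.216 to 0.301). The early priming genes shared no direction, with Dntt lower, Il7r higher and Rag1 split between the replicates. Against Bcor-/-, the called members in LSK were Il7r, Ebf1, Pax5, Cd79a and Cd79b (5 of 10, with 25.2% of all genes called). Of these, Ebf1 and Pax5 entered the LSK test through the double knockout libraries alone, which leaves Il7r, Cd79a and Cd79b. In MEP they were Dntt, Pax5, Cd79a and Cd79b (4 of 10, 20.3%). No member was called when only double knockout and Bcor-/- were fitted, nor in MEP with 1 variance per genotype. Against Dnmt3a-/-, the members called were those called against WT, 6 in LSK (25.5%) and 4 in MEP (30.0%). Without Ebf1 and Pax5, which entered in the same way, the LSK calls were Dntt, Il7r, Cd79a and Cd79b. These comparisons share the double knockout libraries.

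Library by library the counts came apart. Ebf1 and Pax5 in LSK and Rag2 in MEP passed the filter through the double knockout libraries alone. Their part in the counts below is no support by itself. Without Ebf1 and Pax5, the LSK members above every WT library were Il7r, Rag1, Rag2, Cd79a, Cd79b, Vpreb1 and Igll1 in replicate 1. In replicate 2 they were Il7r, Cd79a and Cd79b. The fits with 1 library alone hold 1 double knockout sample, so the shares of all genes beside their counts are no test. In replicate 1, 9 of 10 members lay above every WT library in LSK and in MEP, Dntt being the exception, where 40.8% of all tested genes did so in LSK and 40.1% in MEP. Dntt lay below every WT library, as did 37.8% of all genes in LSK and 41.6% in MEP. In replicate 2, 5 members lay above every WT library in LSK (42.1% of all genes) and 4 in MEP (41.8%), and 5 lay below in either cell type (40.9% and 41.6%): Dntt, Rag1, Rag2, Vpreb1 and Igll1. With replicate 1 as the sole double knockout library, all 10 members were called in LSK (29.5% of all genes) and in MEP (33.5%), 9 higher and Dntt lower. With replicate 2 alone, 8 were called in LSK (37.7%), among them Rag1 at -1.16 and Rag2 at -1.48, and 5 in MEP (39.8%), Dntt, Rag1, Vpreb1 and Igll1 lower and Cd79b higher, with Rag2 under the filter.

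**Figure D3:**
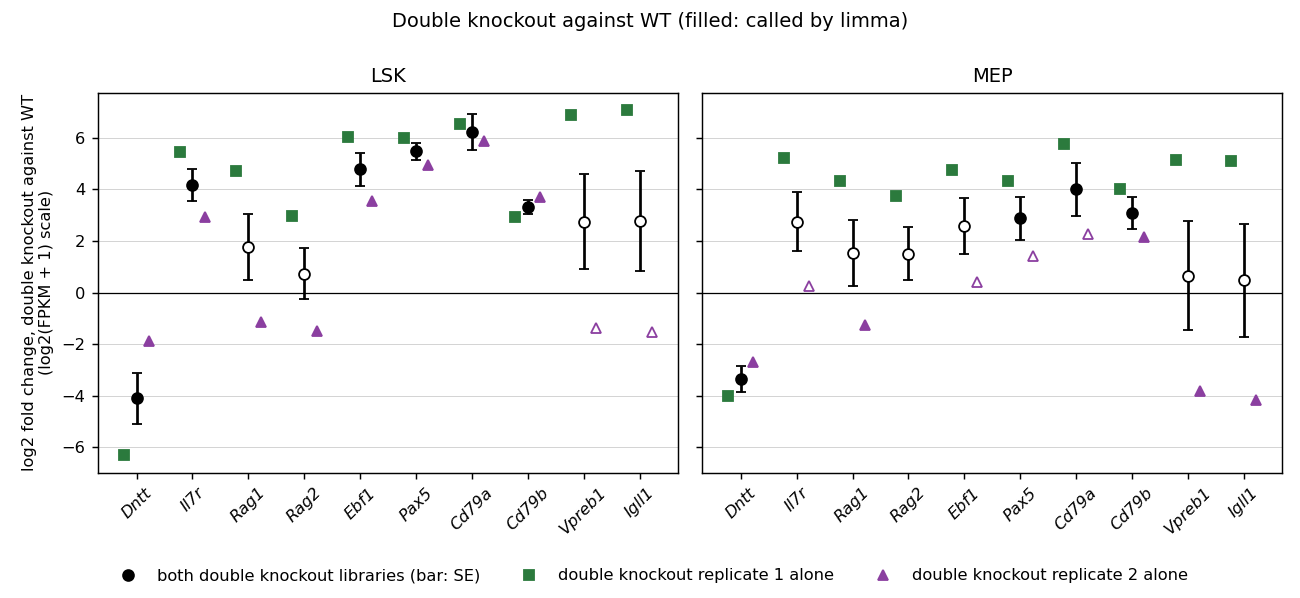
Log2 fold change of each member in double knockout against WT on the log2(FPKM + 1) scale, with both double knockout libraries (black circles, bars are SE), with replicate 1 alone (squares) and with replicate 2 alone (triangles); filled symbols were called by limma. Squares and triangles lie on opposite sides of 0 for Rag1, Vpreb1 and Igll1 in both cell types and for Rag2 in LSK.

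Loss of Bcor alone left no member past the threshold in the main fit. In LSK, Dntt was called with 1 variance per genotype and when only Bcor-/- and WT were fitted. In Bcor-/- LSK the early priming genes Dntt, Il7r and Rag1, and Rag2 as well, lay below every WT library, 4 of 10 members where 27.0% of all tested genes did so and 54.0% did not overlap in either direction. Their log2 fold changes were -1.62, -0.93, -0.88 and -0.40, and the adjusted p in limma ran from 0.351 to 0.852. The committed genes overlapped with WT: Cd79a had 26.8 and 3.77 FPKM, the higher of them from the library whose label names 2 mice, and Cd79b differed by -0.06 (SE 0.28). The count of members called by limma was 0, where 5.77% of all tested genes were called, and it was 0 with the unadjusted p as well, where 1581 of 11952 were. In MEP, Bcor-/- replicate 1 was above replicate 2 for all 10 members, and Il7r was the one that lay below every WT library, at 2.89 and 0.716 FPKM (16.1% of all genes did so, and 30.8% did not overlap in either direction). No member was called by limma in Bcor-/- MEP, where 0.0640% of all genes were, and none with the unadjusted p, where 302 of 10933 were.

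Loss of Dnmt3a alone left 0 of 10 members called by limma in LSK and in MEP, where 0% of all tested genes were called. With the unadjusted p the count was 1 in LSK, where 53 of all 11952 genes were called, and 0 in MEP, where 45 of 10933 were, the one being Pax5 (log2 fold change 0.74, SE 0.30, adjusted p = 1), and its 3 Dnmt3a-/- libraries lay above the 3 WT libraries. Rag2 lay below every WT library in Dnmt3a-/- LSK (1.203, 1.21 and 1.498 FPKM against 1.502 to 2.44), with almost no gap. Of all LSK genes 9.61% did not overlap between these groups. In MEP, Il7r was the 1 member without overlap, at 2.74, 2.58 and 1.11 FPKM against 3.12 to 3.77 in WT (10.4% of all genes). Within WT, replicate 2 was the highest library for 9 of 10 members in LSK and the same 9 in MEP, Pax5 being the exception, and both libraries come from 1 mouse. Over the 8 libraries without the double knockout, Cd79b varied least in LSK, by 1.70-fold from lowest to highest, and Ebf1 by 32.2-fold.

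**Figure D4:**
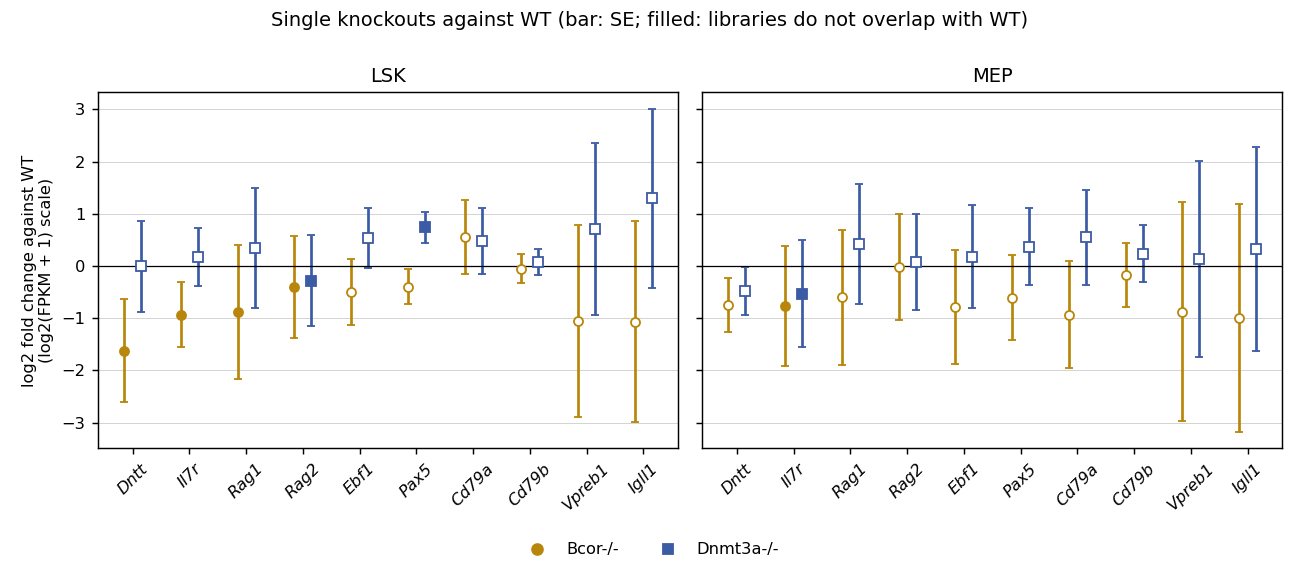
Log2 fold change of each member in Bcor-/- (circles) and Dnmt3a-/- (squares) against WT on the log2(FPKM + 1) scale, with bars for the SE of limma and filled symbols where the libraries do not overlap with WT. In LSK the 4 members whose Bcor-/- libraries all lie below WT are Dntt, Il7r, Rag1 and Rag2.

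Other genes of the pathways were counted from lists chosen with earlier results of these data known. In double knockout LSK, 9 of 12 B-lineage transcription factor genes rose and none fell, with a median log2 fold change of 1.66, where 12.3% of all tested genes rose and 11.4% fell. With quantile normalization and with median centring, 9 rose and 1 fell. Without Lef1, which passed the filter through the double knockout libraries alone, 8 of 11 rose in the main fit, where 10.9% of the genes that pass without those libraries rose. The largest were Pou2af1, a coactivator of octamer-binding factors (5.12, SE 0.61), Spib (4.82, SE 0.56) and Lef1 (4.58, SE 0.49). Of 15 tested B cell surface and receptor signalling genes 10 rose and none fell, or 7 of 11 without Blk, Cd22, Ms4a1 and Vpreb2, which entered in the same way as Lef1. Among the 10 were Ms4a1, which codes for CD20 (5.37, SE 0.78), and Cd22, an inhibitory co-receptor (4.69, SE 0.24). The adjusted p in limma was 0.000401 for Pou2af1 and 0.000356 for Spib. Lef1, Cd22 and Ms4a1 passed the filter through the double knockout libraries alone, so their calls are no support by themselves. Ms4a1, which is switched on after the pre-B genes in normal B cells, was lower in replicate 1 (20.9 FPKM) than in replicate 2 (154 FPKM), the reverse of Vpreb1 and Igll1.

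In double knockout MEP, 8 of 12 B-lineage transcription factor genes and 11 of 15 surface and signalling genes rose, and none of either list fell, where 14.1% of all tested genes rose and 11.0% fell. Pou2af1 (3.31), Spib (3.23) and Irf4 (3.08) led the first list, and Ms4a1 (4.26) and Cd22 (2.64) were among those of the second. Blk, Cd22, Fcrla and Ms4a1 passed the MEP filter through the double knockout libraries alone, so their calls are no support by themselves. Without them the second count was 7 of 11, where 12% of the genes that pass without those libraries rose. The count of all tested surface and signalling genes was lower without replicate 1 and higher without replicate 2. Such fits hold 1 double knockout sample, so their counts are not set against these shares. The lymphoid progenitor genes included 7 of 20 called higher and 2 called lower in LSK, where 12.3% of all tested genes rose and 11.4% fell. With either double knockout library alone, more genes of this list rose than fell. Those fits hold 1 double knockout sample, so their counts are not set against these shares. Ikzf3, which codes for Aiolos (4.17, SE 0.60), Ly6d (3.81, SE 1.14) and Ccr7, a chemokine receptor (3.09, SE 0.69), rose. Cd27 (-2.93, SE 0.39) and Flt3, the receptor tyrosine kinase of multipotent and lymphoid progenitors (-1.69, SE 0.21), fell, as Dntt did. In MEP 8 of 19 rose and none fell, led by Ltb (3.37), Ikzf3 (3.05) and Cd53 (2.84), or 6 of 17 without Ikzf3 and Ccr7, which passed through the double knockout libraries alone. Without replicate 1 a gene of this list also fell in MEP, in a fit that holds 1 double knockout sample.

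In the lists of interleukin-7 receptor signalling and of recombination, few genes were called in LSK, where 12.3% of all tested genes rose and 11.4% fell. Of 10 interleukin-7 receptor signalling genes in LSK, Socs2, a feedback inhibitor of cytokine receptors, rose (3.65, SE 0.43) and Stat5a fell (-0.75, SE 0.13). More genes of this list were called without double knockout replicate 1. That fit holds 1 double knockout sample, so its count is not set against these shares. In MEP 5 of 9 rose, among them Socs2 (3.95), Cish (3.12) and Socs3 (2.71), which all code for feedback inhibitors, and Stat5a fell (-0.99, SE 0.08). Il7r itself was called in LSK and not in MEP. Of 12 recombination and end-joining genes, Lig4 (1.69) and Dclre1c, which codes for Artemis (1.57), rose in LSK and none fell. Without double knockout replicate 1, genes of this list were called in both directions in LSK, in a fit that holds 1 double knockout sample. In MEP, Dclre1c rose (0.72) while Xrcc6 (-0.75) and Xrcc5 (-0.66) fell, which is 1 and 2 of 12 where 14.1% of all genes rose and 11.0% fell, and the count of higher genes was 0 with quantile normalization and with median centring. The MEP counts also moved in fits with 1 double knockout sample, and without replicate 2 more genes rose than fell. In Bcor-/- LSK, 6 of 20 lymphoid progenitor genes fell and none rose, with a median of -0.64, where 5.77% of all tested genes were called in either direction. They were Flt3 (-1.01), Satb1 (-1.05), Mef2c (-0.77), Bcl11a (-0.70), Tcf4 (-0.93) and Cd53 (-0.95), each with an adjusted p from 0.0218 to 0.0396 in limma and named because they are the whole count.

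**Figure D5:**
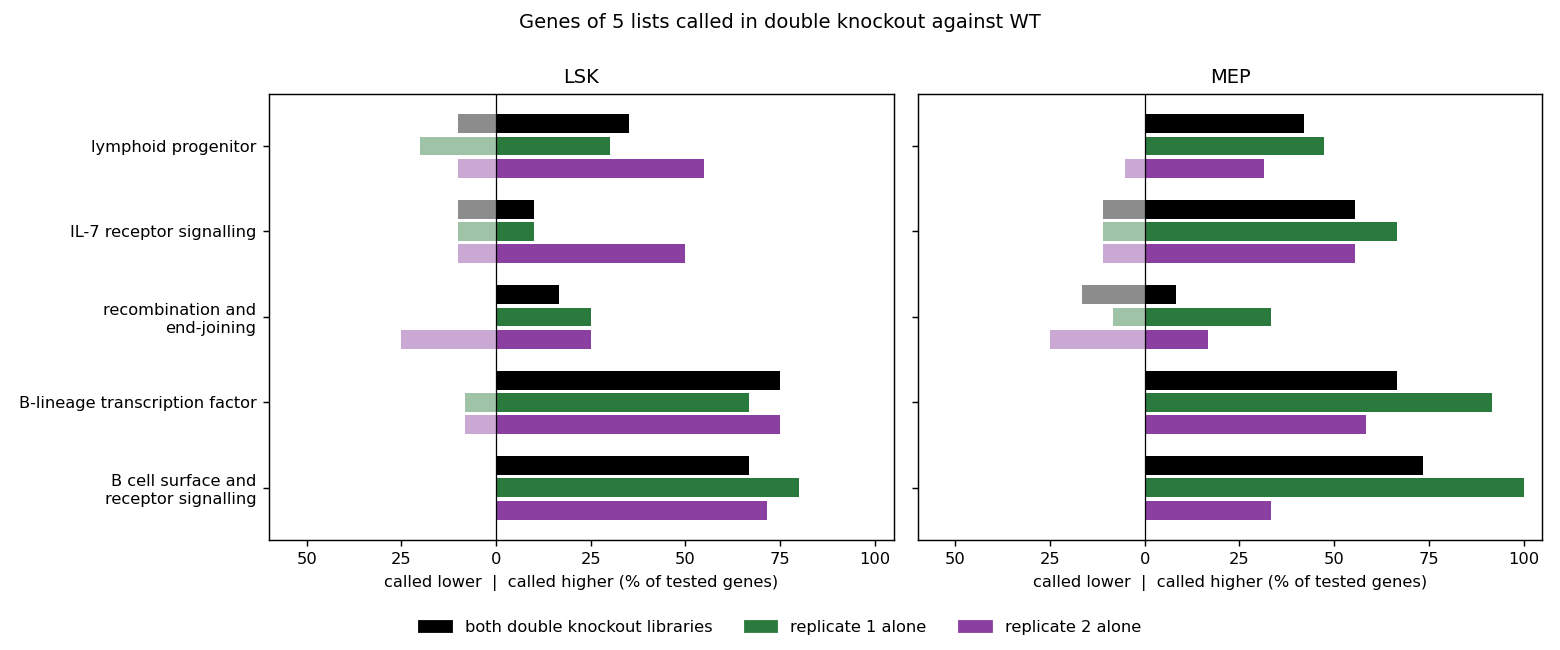
Percent of the tested genes of 5 lists called higher (right, solid) and lower (left, pale) in double knockout against WT, with both double knockout libraries, with replicate 1 alone and with replicate 2 alone. In MEP, 11 of 15 B cell surface and receptor signalling genes were called higher with both libraries, where 14.1% of all tested genes were. It was 7 of 11 without the genes that passed the filter through the double knockout libraries alone. With replicate 1 or 2 alone the group holds 1 sample, and those percentages are not set against that share.

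The 5 genes whose levels followed Dntt most closely, by the lower of the Pearson r over 10 LSK and over 10 MEP libraries among 10772 genes tested in both, were Fam92a (r = 0.938 and 0.934), Anxa9 (0.925 and 0.953), Ankrd13b (0.925 and 0.931), Gm14420 (0.920 and 0.927) and Armcx2 (0.983 and 0.919). The libraries of a cell type share the 4 genotypes, so that r describes the fall in double knockout above all. In Bcor-/- LSK, Armcx2 lay between WT and double knockout, at 13.1 and 7.51 FPKM. WT had 20.2 to 22.6 FPKM and double knockout 0.344 and 5.66. Ankrd13b and Gm14420 lay between them too, while Fam92a and Anxa9 overlapped with WT. For Dntt itself, the lowest Bcor-/- library lay below double knockout replicate 2. No other member was among the 5.

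Markers of other cells moved with the double knockout libraries. Beside the LSK counts that follow, 12.3% of all tested genes were called higher and 11.4% lower. Of the genes that pass the filter without the double knockout libraries, 10.9% were called higher and 11.8% lower. In LSK, all 7 tested maturing erythroid genes were called higher. Of the 8 T cell genes, 6 passed the filter through the double knockout libraries alone, and the other 2 were called higher. The summed FPKM of the erythroid genes was 6129 and 23701 against 54.1 to 145 in WT, and that of the T cell genes was 94.3 and 338 against 26.2 to 34.9. Of 3 mature B and plasma cell genes that pass the filter without the double knockout libraries 1 was called higher, and of 5 tested in all 3 were. The mature B cell gene Cr2 had 1.903 and 0.705 FPKM in replicates 1 and 2, both above the 0.0949 to 0.160 of WT, and Fcer2a had 0.181 and 2.597 FPKM, on either side of the 0.205 to 0.566 of WT. The sum of the 7 listed ones was 556 and 3120 FPKM, against 93.2 to 768 in WT, of which Jchain made 133 and 2733 FPKM. Of 8 plasmacytoid dendritic cell genes 3 were called higher, with a sum of 268 and 2158 FPKM against 186 to 272 in WT, and Siglech, the defining one, had 3.27 and 347 FPKM. Of 6 macrophage genes 1 was called higher, which is near the share of all genes, with a sum of 1378 and 106 FPKM against 53.4 to 308. Of 7 megakaryocyte-erythroid progenitor genes 5 were called higher and 1 lower, with a sum of 907 and 727 FPKM against 162 to 208, and 4 of 6 megakaryocyte genes were called lower, with a sum of 15.1 and 51.6 FPKM against 99.8 to 119.

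Beside the counts in double knockout MEP, 14.1% of all tested genes were called higher and 11.0% lower. Of the genes that pass the filter without the double knockout libraries, 12% were called higher and 11.6% lower. In double knockout MEP, 4 of 7 tested maturing erythroid genes were called higher, with a sum of 4030 and 95114 FPKM against 474 to 1030 in WT. The sum of replicate 2 counts Hbb-b1 as 0, which can be a failed estimate. Of 7 megakaryocyte-erythroid progenitor genes 1 was called lower, which is near the share of all genes, and none higher. In replicate 1, Gata1 (71.4 FPKM), Klf1, Epor, Gfi1b, Car1 and Itga2b lay below every WT library and Tfrc lay within the WT range. In replicate 2 these genes went both ways, with Gata1 at 239 FPKM against 170 to 225 in WT. The 8 T cell genes had a sum of 74.2 and 50.5 FPKM against 5.89 to 8.54, and the 1 of them that passes the filter without the double knockout libraries was called higher. Of 3 mature B and plasma cell genes that so pass 2 were called higher, and of 2 such macrophage genes 1 was. The sum of all 7 listed mature B and plasma cell genes was 352 and 67.0 FPKM against 6.90 to 16.2, and that of all 6 macrophage genes was 722 and 26.5 FPKM against 6.08 to 10.1. Of 8 granulocyte and monocyte genes 4 were called higher there, with a sum of 6033 and 12703 FPKM against 269 to 706. The part of these cells in the levels of the members was not tested. In Bcor-/- LSK, 5.77% of all tested genes were called in either direction. There, 4 of 8 granulocyte and monocyte genes were called higher, with a sum of 16950 and 24517 FPKM against 3194 to 11799 in WT. Of 7 megakaryocyte-erythroid progenitor genes 4 were called higher, with a sum of 536 and 890 FPKM against 162 to 208. Of 8 stem and progenitor genes 2 were called lower, with a sum of 861 and 585 FPKM against 1142 to 1340. Dntt, Il7r, Rag1 and Rag2 lay below every WT library there but did not pass the threshold in the main fit. The part of the marked cells in the levels of these members was not tested either.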

How the data were processed

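RNA of LSK and MEP cells sorted from mouse bone marrow was measured by polyA RNA-seq. The submitters' processing notes name STAR 2.5.1b, SAMtools 1.9, Cufflinks 2.2.1 and the mm9 build, with no roles, and the annotation and strandedness are not given in the sources used here. For LSK and for MEP the authors deposited FPKM of 24315 genes in 10 libraries, which were used unchanged. No read counts are given, so the depth per library is unknown and no counting error was computed. All 20 libraries were mapped to genotype and replicate number by their labels, and none was left out.

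With R 4.3.3 and limma 3.58.1, log2(FPKM + 1) of genes that averaged 1 FPKM or more was fitted in each cell type with 1 mean per genotype and a mean-variance trend, and each pair of genotypes was compared with a two-sided moderated test and Benjamini-Hochberg adjustment. The study's thresholds (p under 0.05 and fold change above 1.5) come with no named test, so the adjusted p was used. The fit was tested on simulated data. Gene lists were described by counts and medians. Named genes are the 10 members, Bcor and Dnmt3a, up to 3 called genes per list, direction and cell type with the largest change, the 5 genes most like Dntt, and markers beside a result. Some genes that this rule names are not reported here. Vpreb2, Vpreb3 and the 6 genes that fell in Bcor-/- LSK were named after their values were seen. The members and lists were chosen with earlier results of these data known. Promoters came from a RefSeq table and overlapping exons from GENCODE M21, both on GRCm38, and Python 3.11.15 with matplotlib 3.10.9 drew the plots.

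The alternatives were quantile normalization, median centring, a 0.1 pseudocount, a filter at 5 FPKM or none, the replicate number as a block, a fit of the compared genotypes alone, no trend, 1 variance per genotype, the unadjusted p, a fold change above 2, and leaving out each library. The variance per genotype was a weight for each genotype estimated over all genes, with the spread of each gene still pooled. For the gene lists, leaving out each double knockout library and both scalings were added after seeing the data.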

Additional observations from a re-analysis of the deposited data

How the results depend on the processing

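The counts of called members kept within 1.5 times in 138 of 160 alternatives. The 160 include both single knockouts against WT in both cell types, where the main count was 0 and kept means that it stayed at 0. Those alternatives do not bear on the calls in double knockout. The exceptions to the 138 follow, and the cause was not tested unless fewer libraries explain it by construction. With 1 variance per genotype, 0 members were called in MEP in double knockout against WT, against Bcor-/- and against Dnmt3a-/-, and 1 (Dntt) in Bcor-/- LSK. With only the compared genotypes, the count was 1 (Dntt) in double knockout against WT, 0 against Bcor-/- and 2 against Dnmt3a-/- in MEP, 0 in double knockout against Bcor-/- in LSK, and 1 (Dntt) in Bcor-/- LSK. With the unadjusted p it was 1 in Dnmt3a-/- LSK. Leaving out 1 library gave 6 to 10 members in LSK and 2 to 10 in MEP for double knockout against WT, 5 to 10 and 1 to 10 against Bcor-/-, and 6 to 10 and 2 to 10 against Dnmt3a-/-. The highest counts came without double knockout replicate 2 (against Dnmt3a-/- in LSK also without replicate 1), in fits with 1 double knockout sample. They include Ebf1 and Pax5 in LSK and Rag2 in MEP, which entered the test through the double knockout libraries alone. The 2 in MEP came without WT replicate 3 or without Dnmt3a-/- replicate 2 or 3. The lowest count against Bcor-/- in MEP came without Bcor-/- replicate 2, in a fit with 1 Bcor-/- sample.

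Against WT in double knockout, leaving out 1 library gave log2 fold changes in LSK from -1.16 to 4.71 for Rag1, -1.48 to 2.95 for Rag2, -1.39 to 6.87 for Vpreb1 and -1.52 to 7.07 for Igll1, and in MEP from -1.26 to 4.33 for Rag1, -3.81 to 5.12 for Vpreb1 and -4.15 to 5.09 for Igll1. Besides double knockout replicate 1, WT replicate 3 turned a direction in MEP (Vpreb1 -0.06 and Igll1 -0.19 without it). A pseudocount of 0.1 turned Rag2 in LSK to -0.39 and Igll1 in MEP to -0.10. In Bcor-/- LSK, leaving out 1 library gave -0.72 to 1.82 for Cd79a and -0.37 to 0.26 for Cd79b (0.13 without WT replicate 2). Of the other alternatives to these member values, none turned the direction. With the replicate block, 6 members were called in LSK and 4 in MEP in double knockout against WT, and 3 in MEP against Dnmt3a-/-, where Pax5 was lost. The replicate numbers did not pair the samples, with correlations of same-numbered deviations from -0.06 to 0.09 in LSK and -0.19 to 0.34 in MEP. In MEP the median log2 fold change of all genes went from 0.02 to -0.17 with quantile normalization, and the share of higher calls from 56.2% to 35.7% (median centring to -0.14 and 37.6%), with the same 4 members called. In LSK the shares were 51.9%, 43.5% and 42.7%. Without read counts, low FPKM such as those of Rag2 or Ebf1 in WT have unknown precision.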
